A study of Mus musculus and Rattus norvegicus with 96 samples.

Results

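Meg3, Rian and Mirg are 3 long noncoding RNAs transcribed from the same strand of mouse chromosome 12, inside the imprinted Dlk1-Dio3 domain. They were taken by gene symbol from the 24543 rows of the mouse liver table, and all 3 were found. In this domain the protein-coding genes Dlk1, Rtl1 and Dio3 are active on the paternally inherited chromosome and the noncoding RNAs on the maternally inherited one. Meg3 is a spliced RNA that is mostly nuclear, Rian is a host transcript of small nucleolar RNAs and Mirg is the host of a cluster of microRNAs. In liver the noncoding cluster is known to respond to phenobarbital in hepatocytes around the central vein. Phenobarbital (PB) is a barbiturate that activates the nuclear receptor CAR and induces Cyp2b10, a cytochrome P450 that is the classical marker of this response.

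The values came from total RNA sequencing of livers of 12 young adult male B6C3F1 mice. Control mice (Con, n = 6) drank water and PB mice (n = 6) received 600 ppm PB in the drinking water for 7 days. Each liver gave 4 libraries, which make 8 groups of 6: frozen tissue (FR), tissue put directly into 10% neutral buffered formalin and embedded in paraffin (FFPE), frozen tissue that was later fixed in 10% formalin and embedded (FR>FFPE), and frozen tissue that was later fixed in 70% ethanol and embedded (FR>OH). FR, FR>FFPE and FR>OH were portions of the same frozen tissue, while FFPE was a piece fixed at collection. Piece of liver and preservation therefore cannot be told apart where FFPE is compared. The paper gives about the same fixation time for each fixed group. RNA of the frozen group was isolated by another method than that of the embedded groups, so embedding and RNA isolation cannot be told apart in any comparison with FR. The paper also reports shorter heat fragmentation for FFPE samples, and does not say whether this covers all embedded groups. The other 48 samples of the series, from a mouse hepatocyte line and from rat liver and lung, are described at the end.

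Gene counts summed to between 4.95 and 13.7 M (M for 1000000) per library. The total was highest in FR (11.7 to 13.7 M) and lowest in FFPE (4.95 to 6.76 M), although the total reads behind them, recovered by dividing the raw counts by the deposited normalized values, overlapped (23.7 to 27.4 M in FR and 21.7 to 27.0 M in FFPE). The paper names what it divided by only as the library size, and the reading as total reads is an assumption. On that reading, reads assigned to genes were 46.6% to 51.8% of the total in FR and 21.4% to 27.5% in FFPE. Levels are given as CPM, the count of a gene per 1000000 counts of its library. Because this divisor moved with preservation, preservation differences are also given with the total reads as the divisor. Cyp2b10 was at 0.340 ± 0.272 CPM in FR Con and 1890 ± 295 CPM in FR PB (SD, n = 6), and no PB library of any preservation was below 1078 CPM, so every library matched its treatment label.

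Meg3 lies at chr12:109540996-109571729, Rian at chr12:109603945-109661716 and Mirg at chr12:109734981-109749458, all on the plus strand of GRCm38. Their RefSeq start regions, from 250 bases before to 50 bases after the annotated start (GRCm38.p6), are shown because all 3 RNAs were higher with PB. Capitals mark matches on either strand to 5 motifs: the cAMP response element TGACGTCA, the TATA box TATAAA, the CCAAT box, the TCF motif CTTTGAT, and a direct repeat of AGGTCA or AGTTCA with 4 bases between the copies. The Meg3 region spans chr12:109540746-109541045, the Rian region chr12:109603695-109603994 and the Mirg region chr12:109734731-109735030.
Meg3 start region: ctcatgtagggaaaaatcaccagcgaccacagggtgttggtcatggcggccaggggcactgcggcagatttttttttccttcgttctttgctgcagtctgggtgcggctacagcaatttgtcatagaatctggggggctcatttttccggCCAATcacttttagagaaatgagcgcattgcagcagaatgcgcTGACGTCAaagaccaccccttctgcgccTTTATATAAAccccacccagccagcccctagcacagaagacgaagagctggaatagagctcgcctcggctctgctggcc
Rian start region: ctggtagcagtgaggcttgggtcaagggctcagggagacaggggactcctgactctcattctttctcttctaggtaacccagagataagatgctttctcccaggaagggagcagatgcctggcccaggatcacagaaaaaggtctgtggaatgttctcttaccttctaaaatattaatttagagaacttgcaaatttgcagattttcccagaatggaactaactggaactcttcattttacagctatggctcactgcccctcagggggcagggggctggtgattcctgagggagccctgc
Mirg start region: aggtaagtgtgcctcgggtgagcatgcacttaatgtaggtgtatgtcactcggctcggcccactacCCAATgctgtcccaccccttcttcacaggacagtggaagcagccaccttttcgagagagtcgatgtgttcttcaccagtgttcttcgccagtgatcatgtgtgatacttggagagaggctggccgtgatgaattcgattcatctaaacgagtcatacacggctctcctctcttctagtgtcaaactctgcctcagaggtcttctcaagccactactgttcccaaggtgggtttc
Counting from the annotated start, the Meg3 region held CCAAT at position -100, TGACGTCA at -57, and TATAAA at -25 on the plus strand and at -29 on the minus strand, overlapping each other. TGACGTCA was present in 1.79% of all 32851 such RefSeq regions, TATAAA in 13.6% and CCAAT in 37.4%. The Mirg region held a single CCAAT, and none of the 5 motifs was matched in the Rian region. CTTTGAT was present in 3.73% and the direct repeat in 0.0274% of all regions, and neither was matched in the 3 shown. The Meg3 and Mirg regions had 13 and 10 CpG dinucleotides and the Rian region had 0, beside a median of 7 over all regions. A second annotated Meg3 start, with the region chr12:109545148-109545447, held none of the 5 motifs and is not printed. A sixth motif, a single AGGTCA, was searched but is not capitalised. It was matched at -141 of that second Meg3 region, on the minus strand, and in none of the 3 regions shown, and it is present in 16.3% of all regions.

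RefSeq places 28 mature microRNAs inside the 3 transcripts, 3 in Meg3, 6 in Rian and 19 in Mirg, with 27 different seeds (bases 2 to 8). A single seed was shared, by the first pair below. These sequences show what the transcripts carry, with the seed in capitals.
mmu-miR-453 (in Mirg): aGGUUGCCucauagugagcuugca
mmu-miR-496a-5p (in Mirg): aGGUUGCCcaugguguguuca
mmu-miR-410-3p (in Mirg): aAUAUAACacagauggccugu
mmu-miR-370-3p (in Rian): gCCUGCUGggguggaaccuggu
mmu-miR-770-3p (in Meg3): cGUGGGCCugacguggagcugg
The libraries were not made to capture mature microRNAs. Of the 62 microRNA rows that the table lists from Wars to Ppp2r5c on this chromosome, 61 were at 0 in all 48 libraries. What follows is the level of the host transcripts alone.

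Meg3 was higher in PB than in Con mice in all 4 preservations. In FR, Con mice had a lowest, median and highest level of 0.844, 1.14 and 1.96 CPM, on 11 to 24 counts, and PB mice 1.56, 3.99 and 5.99 CPM, on 19 to 75 counts. The groups overlapped through a single PB mouse, 80B, and the other 5 PB mice were above every Con mouse. The log2 fold change was 1.59 ± 0.38 (SE), with an adjusted p of 0.0032 by edgeR's quasi-likelihood test. A gene was called when its edgeR adjusted p was under 0.05 and its fold change at least 2, and 1.74% of the 13370 genes tested were called higher in this comparison. Since the tissue is whole liver, more RNA per cell and more cells that express a gene cannot be told apart in this or any later comparison.

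In FFPE the Con levels of Meg3 were 3.95, 6.69 and 8.92 CPM (lowest, median, highest) and the PB levels 13.4, 26.3 and 28.7 CPM. All 6 PB mice were above all 6 Con mice. The log2 fold change was 1.85 ± 0.31 (edgeR adjusted p = 4.7e-05), where 1.65% of genes were called higher. In FR>FFPE, Con levels were 1.13, 2.73 and 5.52 CPM and PB levels 4.45, 11.5 and 16.9 CPM. Here too mouse 80B was the only PB mouse below the highest Con mouse, 8D. The log2 fold change was 1.96 ± 0.33 (edgeR adjusted p = 3.4e-05), where 1.71% of genes were called higher.

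In FR>OH, Con levels of Meg3 were 0.692, 1.81 and 3.22 CPM and PB levels 6.07, 13.8 and 25.1 CPM, without overlap. The log2 fold change was 2.90 ± 0.36 (edgeR adjusted p = 1.8e-08), where 2.12% of genes were called higher. As the libraries of 1 mouse share a liver, the treatment was also tested on the mean log2 level of each mouse over its 4 libraries, with 0.1 CPM added. PB exceeded Con by 2.03 on that scale (3.36 ± 0.55 and 1.32 ± 0.46, SD, n = 6 each). All 6 PB mice were above all 6 Con mice, and the two-sided exact permutation p was 0.0022, the smallest that 6 against 6 mice can give.

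Rian had larger fold changes and no overlap between treatments. In FR, Con mice had 0.391, 0.817 and 1.15 CPM (lowest, median, highest) on 5 to 14 counts, and PB mice 2.13, 3.64 and 5.84 CPM on 27 to 80 counts. In FFPE the levels were 0.760, 1.89 and 2.69 CPM in Con and 5.37, 9.23 and 13.5 CPM in PB. The groups did not overlap in either preservation. In FR>FFPE they were 0.542, 0.720 and 2.34 CPM in Con and 3.77, 6.27 and 7.79 CPM in PB. In FR>OH they were 0.0989, 0.396 and 1.33 CPM in Con and 2.90, 6.65 and 10.9 CPM in PB. Again no PB mouse was below any Con mouse of the same preservation. The lowest FR>OH value of Con rests on 1 count.

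The log2 fold changes of Rian for PB vs. Con were 2.21 ± 0.38 in FR (edgeR adjusted p = 2.7e-05) and 2.28 ± 0.37 in FFPE (edgeR adjusted p = 1.3e-05). They were 2.43 ± 0.38 in FR>FFPE (edgeR adjusted p = 3.8e-06) and 3.60 ± 0.45 in FR>OH (edgeR adjusted p = 2.9e-09). Over mouse means the difference was 2.64 (2.54 ± 0.49 in PB and -0.10 ± 0.49 in Con, SD, n = 6 each, exact permutation p = 0.0022). Meg3 and Rian were both called higher with PB in 4 of 4 preservations.

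**Figure D1:**
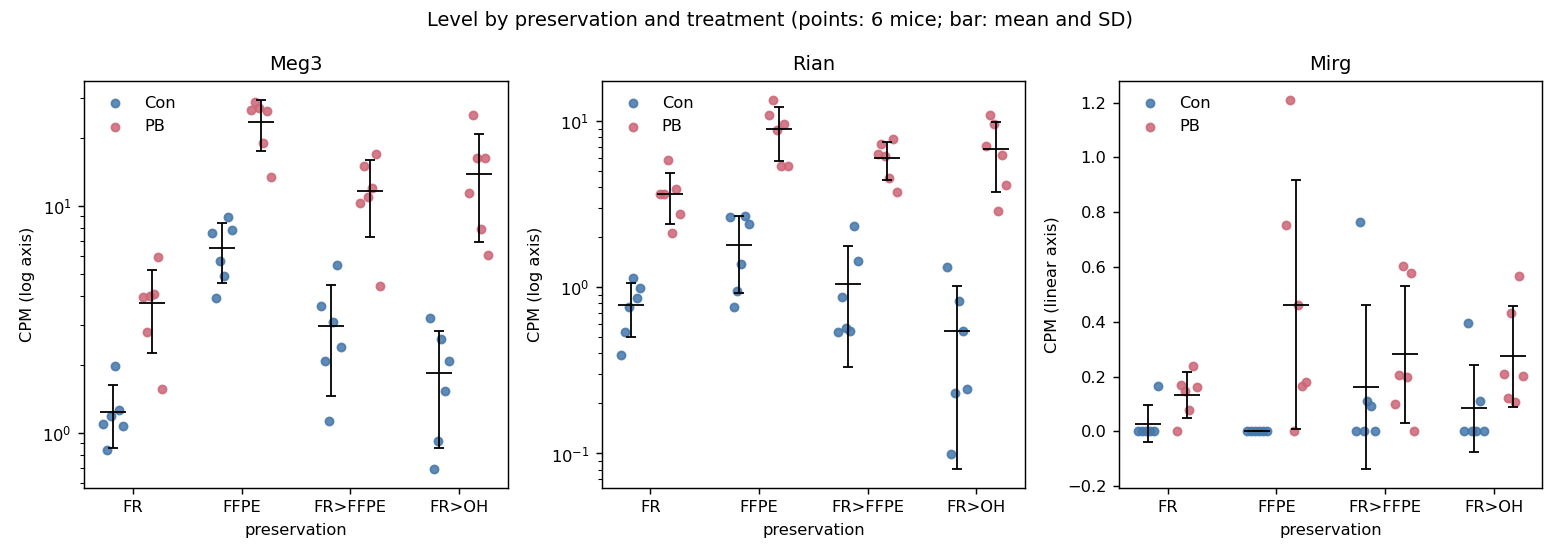
CPM of Meg3 and Rian (log axes) and of Mirg (linear axis) by preservation, Con in blue and PB in red, with 1 point for each of 6 mice and the mean and SD as black bars. Rian separates by treatment in each preservation, Meg3 overlaps through mouse 80B in FR and FR>FFPE, and the highest Mirg value is 1.21 CPM.

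The L number in the sample titles, read here as the sequencing lane, was unevenly spread over the groups. The 5 numbers carry 10, 10, 10, 9 and 9 libraries, more than the 8 per lane that the protocol gives, so the reading as a lane is not certain. In FR>FFPE all Con libraries were in lane 3 and all PB libraries in lane 4, so lane and treatment cannot be told apart there. In the other preservations part of the contrast lay within a lane. In lane 2, the 2 FR PB libraries had Meg3 levels of 2.79 and 3.96 CPM and the 6 FR Con libraries 0.844 to 1.96 CPM, a log2 difference of 1.40 (exact permutation p = 0.036, the smallest possible). In lane 1, 4 FFPE PB libraries had 19 to 28.7 CPM and the 6 FFPE Con libraries 3.95 to 8.92 CPM, a log2 difference of 1.98 (exact permutation p = 0.0048, the smallest possible). In lane 5, 6 FR>OH PB libraries and 3 FR>OH Con libraries differed by 2.56 for Meg3 and by 3.41 for Rian (exact permutation p = 0.012 for each, the smallest possible). For Rian the log2 difference was 2.15 within lane 2 in FR (exact permutation p = 0.036) and 2.43 within lane 1 in FFPE (exact permutation p = 0.0048). With a term for the lane in the fit, the difference of Meg3 in FR was 1.44 and was not called (edgeR adjusted p = 0.15). Preservation also went largely with lane, with FFPE in lanes 1 and 2, FR in 2 and 3, FR>FFPE in 3 and 4 and FR>OH in 4 and 5. Among the comparisons between preservations, a lane term could be fitted only for FFPE vs. FR.

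Mirg was close to the detection limit. It had between 0 and 7 counts per library, was above 0 in 27 of 48 libraries and did not pass the filter on low counts, so it is described by summed counts. FR Con libraries held 2 counts together and FR PB libraries 10, which is 0.0268 and 0.133 CPM. FFPE Con libraries held 0 counts and FFPE PB libraries 16, or 0.439 CPM. FR>FFPE libraries held 9 in Con and 17 in PB, and FR>OH libraries 5 in Con and 16 in PB. In each preservation the PB sum was the higher one.

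Over all preservations, 16 counts of Mirg in 6 of 24 Con libraries stood against 59 counts in 21 of 24 PB libraries, a ratio of levels of 3.5 (95% exact binomial interval 1.99 to 6.52, for counting error only). The ratio was 4.95 in FR (1.05 to 46.5), 3.06 in FR>OH (1.07 to 10.7) and 1.66 in FR>FFPE (0.699 to 4.22). In FFPE, where Con held 0 counts, the PB level was 5.19-fold a floor of 3 counts over the Con group, which is 0.0845 CPM. That value leaves out the counting error of the PB sum. The 95% intervals of the summed levels were 0.251 to 0.713 CPM in FFPE PB and 0 to 0.104 CPM in FFPE Con. Of the 16 Con counts, 11 came from mouse 82B, which had 7 in FR>FFPE and 4 in FR>OH but 0 in FR and FFPE. On mouse means of log2 CPM the difference was 1.22 (5 of 6 PB mice above all Con mice, exact permutation p = 0.0043). This test was run for each of the 3 RNAs, and its p-values are not adjusted. In a fit without the filter Mirg passed both thresholds in FFPE (edgeR adjusted p = 0.028), where 257 of 18841 genes were called higher and 42 lower. All Con libraries are at 0 there, so the size of its log2 value, 5.11, is not fixed by the data and its SE has no finite meaning. Mirg was not called in the other preservations, with log2 values of 1.86 in FR (edgeR adjusted p = 0.39), 0.70 in FR>FFPE (edgeR adjusted p = 0.78) and 1.49 in FR>OH (edgeR adjusted p = 0.38).

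The next question was how far preservation alone moved the same RNAs. Averaged over Con and PB, Meg3 was called higher in each embedded preparation than in FR. In FFPE the log2 difference from FR was 2.52 ± 0.25 (edgeR adjusted p = 1.4e-12), where 13.0% of genes were called higher and the median over all genes was 0.32. In FR>FFPE it was 1.44 ± 0.25 (edgeR adjusted p = 2.7e-06), where 6.47% of genes were called higher and the median was 0.34. In FR>OH it was 1.22 ± 0.26 (edgeR adjusted p = 0.00011), where 3.90% were called higher and the median was 0.18. The difference of Meg3 was thus larger than that of the median gene in each. Within mice, Meg3 was higher than in FR in 12 of 12 livers for FFPE (exact sign-flip permutation p = 0.00049, the smallest possible), in 11 of 12 for FR>FFPE (exact permutation p = 0.00098) and in 10 of 12 for FR>OH (exact permutation p = 0.0034). With total reads as the divisor these were 12 of 12, 11 of 12 and 9 of 12 livers (exact permutation p = 0.00049, 0.0015 and 0.015). These 3 comparisons share the FR libraries.

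Rian moved less with preservation. It was higher in FFPE than in FR by 1.24 ± 0.27 (edgeR adjusted p = 5.8e-05), and in 12 of 12 mice (exact permutation p = 0.00049), but in 7 of 12 with total reads as the divisor (exact permutation p = 0.22). The difference was 0.60 ± 0.27 for FR>FFPE, under the 2-fold limit (edgeR adjusted p = 0.044), with 10 of 12 mice higher (exact permutation p = 0.026). It was 0.20 ± 0.29 for FR>OH (edgeR adjusted p = 0.61), with 7 of 12 mice higher.

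The differences from FR were also taken in Con and PB mice apart, and the 2 treatments lay furthest apart in FR>OH. In Con mice alone Meg3 in FR>OH differed from FR by 0.56 ± 0.43 and was not called (edgeR adjusted p = 0.30, with 4.20% of genes called higher). In PB mice alone it differed by 1.88 ± 0.31 and was called (edgeR adjusted p = 3.1e-06, with 3.67% called higher). Rian in FR>OH was at -0.50 ± 0.50 in Con mice (edgeR adjusted p = 0.44) and at 0.89 ± 0.31 in PB mice, under the 2-fold limit (edgeR adjusted p = 0.018). In FFPE vs. FR both RNAs were called higher in each treatment, Meg3 by 2.39 ± 0.39 in Con and 2.64 ± 0.31 in PB and Rian by 1.21 ± 0.43 in Con and 1.28 ± 0.31 in PB, where 11.5% and 14.4% of genes were called higher in Con and PB. In FR>FFPE vs. FR Meg3 was called higher in Con (1.26 ± 0.40) and PB (1.63 ± 0.31), where 5.34% and 7.76% of genes were, and Rian was not called, at 0.50 ± 0.44 and 0.71 ± 0.31. The difference between treatments is tested as an interaction further on, where neither RNA was called in the fit across genes.

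Mirg did not pass the test over mice in any preparation. Its within-mouse difference from FR was 0.34 ± 1.35 (SD, n = 12, exact permutation p = 0.41) when FFPE was compared, 0.56 ± 1.23 in FR>FFPE (exact permutation p = 0.14) and 0.49 ± 0.98 with FR>OH (exact permutation p = 0.14). These were 9 tests over mice, unadjusted.

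The divisor set much of the preservation difference. With total reads as the divisor the median gene was lower in FFPE than in FR, with a log2 difference of -0.63 in place of 0.32. The split of the genes called in FFPE vs. FR went from 1735 higher and 258 lower with the column total to 892 and 669 with TMM factors and to 131 and 3566 with total reads. With that divisor Meg3 was still called higher in FFPE (1.58 ± 0.24, edgeR adjusted p = 9.9e-08), where 0.980% of genes were. It was called higher in FR>FFPE (1.07 ± 0.25, edgeR adjusted p = 0.00031), with 1.59% of genes, and in FR>OH it was at 0.89 ± 0.26, under the 2-fold limit (edgeR adjusted p = 0.0033), with 1.22% of genes called. Rian was not called in any of the 3. It was at 0.29 ± 0.27 in FFPE (edgeR adjusted p = 0.32), at 0.23 ± 0.27 once FR>FFPE was compared (edgeR adjusted p = 0.51) and at -0.14 ± 0.30 with FR>OH (edgeR adjusted p = 0.71). The PB differences of both RNAs were called in all 4 preservations under this divisor too, with the 4 values between 1.62 and 2.99 for Meg3 and between 2.26 and 3.71 for Rian.

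**Figure D2:**
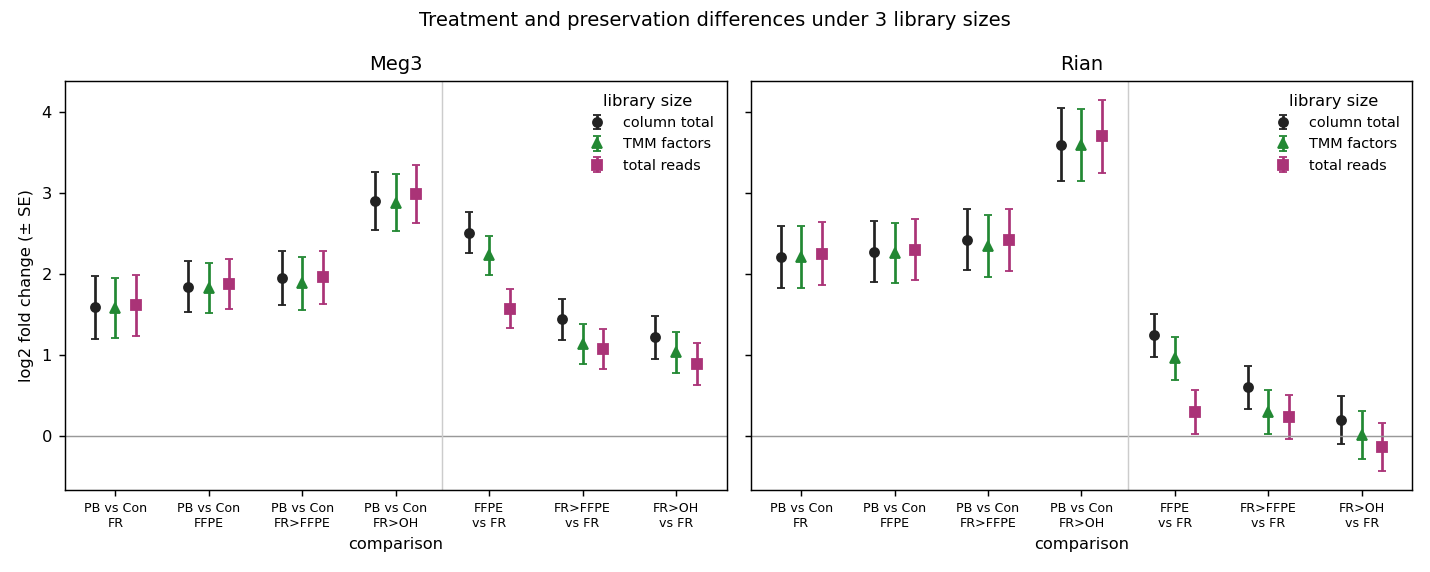
Log2 fold changes of Meg3 and Rian with SE for PB vs. Con in each preservation (left of the line in each panel) and for each embedded preparation vs. FR (right of it), under 3 library sizes. The PB differences sit at nearly the same height with each library size, while FFPE vs. FR of Rian goes from 1.24 with the column total to 0.29 with total reads.

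Between the embedded preparations, Meg3 was higher in FFPE than in FR>FFPE by 1.07 ± 0.23 (edgeR adjusted p = 0.00031), a comparison in which 0.531% of genes were called in either direction. It was higher in FFPE than in FR>OH by 1.30 ± 0.24 (edgeR adjusted p = 2.8e-05), with 1.29% of genes called. FR>FFPE and FR>OH differed by 0.22 ± 0.25 (edgeR adjusted p = 0.56), with 0.127% of genes called. Rian was called higher in FFPE vs. FR>OH (1.05 ± 0.29, edgeR adjusted p = 0.0029). It was not called in FFPE vs. FR>FFPE (0.64 ± 0.27, edgeR adjusted p = 0.060) or in FR>FFPE vs. FR>OH (0.41 ± 0.29, edgeR adjusted p = 0.33). With total reads as the divisor none of these was called. Meg3 was then at 0.50 ± 0.23 in FFPE vs. FR>FFPE and 0.69 ± 0.24 in FFPE vs. FR>OH, both under the 2-fold limit (edgeR adjusted p = 0.038 and 0.0076). The median gene was at -0.59 and -0.50 in these 2 comparisons.

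The order of the 8 groups by mean CPM differed between Meg3 and Rian, and depended on the divisor. By mean CPM, Meg3 was lowest in FR Con (1.24 ± 0.38), followed by FR>OH Con (1.84 ± 0.98), FR>FFPE Con (2.97 ± 1.51), FR PB (3.73 ± 1.48), FFPE Con (6.50 ± 1.92), FR>FFPE PB (11.6 ± 4.32), FR>OH PB (13.8 ± 6.91) and FFPE PB (23.5 ± 5.96, SD, n = 6 each). The ranges of each neighbouring pair in that order overlapped. The FFPE Con mean of Meg3 was thus above its FR PB mean, and 15 of the 24 Con libraries were above the lowest PB library when preservations were mixed. With total reads as the divisor this turned, with FFPE Con at 1.62 ± 0.57 below FR PB at 1.82 ± 0.67 counts per 1000000 reads, so that the 4 Con means of Meg3, from 0.593, were below the 4 PB means, up to 5.97, as for Rian. Single libraries still mixed, with 13 of the 24 Con libraries above the lowest PB library. For Rian the 4 Con means (0.547 ± 0.467 in FR>OH, 0.783 ± 0.282 in FR, 1.05 ± 0.721 in FR>FFPE and 1.81 ± 0.878 in FFPE) were below the 4 PB means (3.66 ± 1.26 in FR, 5.99 ± 1.55 in FR>FFPE, 6.81 ± 3.08 in FR>OH and 8.94 ± 3.18 in FFPE). Here 4 of 24 Con libraries were above the lowest PB library, and with total reads as the divisor 0 were. Neighbours within the Con groups and within the PB groups overlapped in range, and so did FFPE Con and FR PB.

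The balance of treatment and preservation can be given as shares of the sum of squares of the log2 levels over the 48 libraries, as a description with no test. For Meg3, treatment took 46.9%, preservation 35.3%, mice within a treatment 9.80%, treatment by preservation 3.02% and the remainder 5.00%. For Rian, treatment took 71.8%, preservation 8.60%, mice within a treatment 8.25%, treatment by preservation 3.44% and the remainder 7.87%. With total reads as the divisor the preservation share was 17.3% for Meg3 and 1.04% for Rian, and the treatment share 61.1% and 79.4%.

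Whether the PB response itself changed with preservation was tested as an interaction. The difference of the Meg3 response in FFPE from that in FR was 0.26 ± 0.50, that in FR>FFPE 0.37 ± 0.51, and that in FR>OH 1.31 ± 0.53 (log2 ± SE). For Rian these were 0.07 ± 0.53, 0.21 ± 0.54 and 1.39 ± 0.59. The edgeR adjusted p was 1.00 for each, and 0% of genes were called for any of these interactions (463, 288 and 305 genes had an unadjusted edgeR p under 0.05, and DESeq2 and limma also called 0 genes). With the mouse as a block, 3 genes were called for the FR>OH interaction, 1 for that of FFPE and 0 for the third, none of them Meg3 or Rian. For FR>OH the unadjusted edgeR p was 0.017 for Meg3 and 0.020 for Rian. In that blocked fit, the FR>OH interactions were 1.29 ± 0.35 for Meg3 (edgeR adjusted p = 0.095) and 1.36 ± 0.44 for Rian (edgeR adjusted p = 0.20). An exact permutation test over mice of the within-mouse difference from FR was added after these values were seen. For FR>OH it gave 1.41 for Meg3 (1.81 ± 0.74 in PB mice and 0.40 ± 0.69 in Con mice, exact permutation p = 0.0065) and 1.51 for Rian (0.81 ± 0.40 and -0.70 ± 1.22, exact permutation p = 0.017). These are unadjusted values from 6 such tests.

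Some mice kept their place from one preparation of the liver to the next. PB mouse 80B had the lowest Meg3 level among PB mice in 4 of 4 preservations, at 1.56, 13.4, 4.45 and 6.07 CPM in FR, FFPE, FR>FFPE and FR>OH. Con mouse 82B had the lowest Meg3 level among Con mice in 3 of 4. For Rian, mouse 80B was the lowest PB mouse in 2 of 4 preservations and mouse 20D in 2 of 4. The highest PB mice for Meg3 were 18D and 75C, each in 2 of 4 preservations. Leaving out any single mouse kept the PB difference over mouse means of Meg3 between 1.91 and 2.24 and that of Rian between 2.5 and 2.78.

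**Figure D3:**
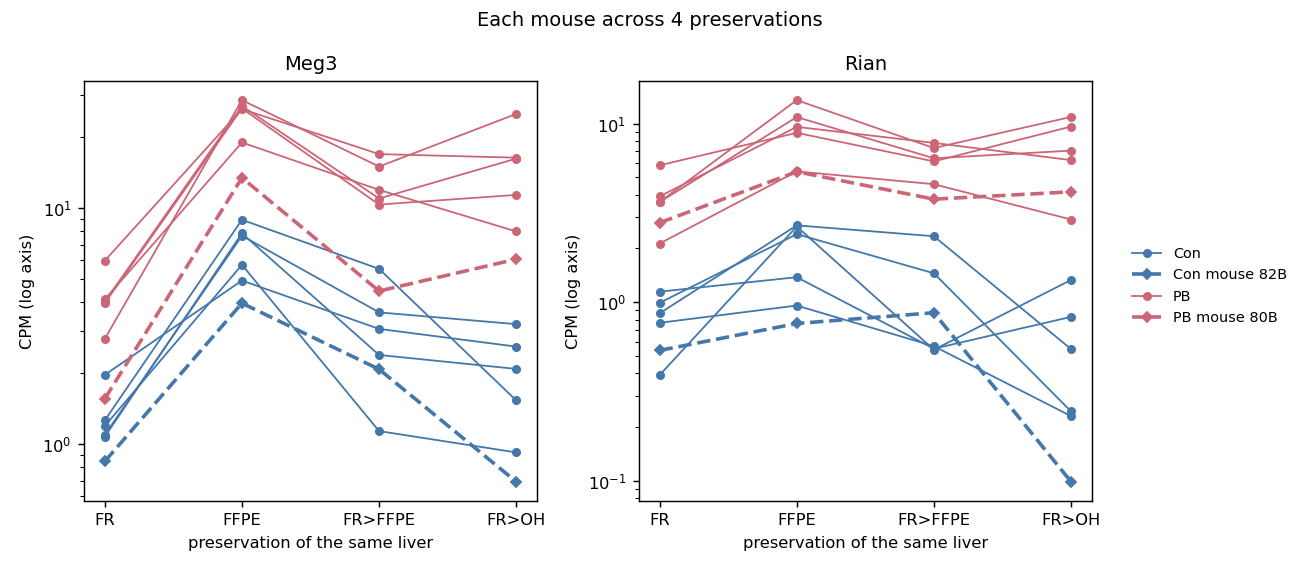
CPM of Meg3 and Rian (log axes) for each of the 12 mice across the 4 preservations of the same liver, Con in blue and PB in red, with Con mouse 82B and PB mouse 80B drawn as thick dashed lines. Mouse 80B runs below the other PB mice for Meg3 in all 4 preservations, and the lines of all 12 mice go up from FR to FFPE.

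A ratio of counts within a library does not depend on the divisor. The log2 ratio of Rian to Meg3 counts (0.5 added to each) was -0.67 ± 0.42 in FR Con and 0.01 ± 0.69 in FR PB, and -1.89 ± 0.38 and -1.42 ± 0.26 in FFPE. It was -1.50 ± 0.77 and -0.88 ± 0.39 in FR>FFPE, and -1.85 ± 0.60 and -0.999 ± 0.386 in FR>OH (SD, n = 6). The transcripts differ in length and isoforms, so only changes of this ratio are compared. The ratio was higher in PB than in Con mice by 0.66 over mouse means (exact permutation p = 0.0065). Relative to FR it fell by 1.33 in FFPE, in 12 of 12 mice (exact permutation p = 0.00049). It fell by 0.86 in FR>FFPE, also in 12 of 12 mice (exact permutation p = 0.00049), and by 1.10 in FR>OH, in 11 of 12 (exact permutation p = 0.00098). Rian counts exceeded Meg3 counts in 3 of 6 FR PB libraries and in no library of another group.

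**Figure D4:**
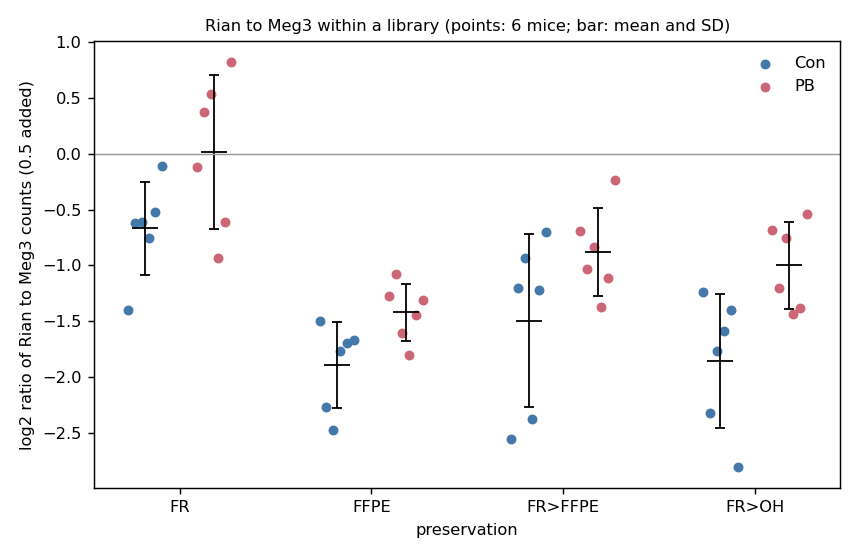
Log2 ratio of Rian to Meg3 counts in each library by preservation, Con in blue and PB in red, with the mean and SD of 6 mice as black bars. The ratio is highest in FR, at -0.67 in Con and 0.01 in PB, and lower in each embedded preparation.

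The same was done against Malat1 and Neat1, which are abundant nuclear RNAs. Both were themselves higher in FFPE than in FR, by 1.22 and 1.42 on the log2 scale of CPM. The ratio of Meg3 to Malat1 was higher in FFPE than in FR by 1.31 ± 0.47 and its ratio to Neat1 by 1.10 ± 0.48 (SD, 12 of 12 mice each, exact permutation p = 0.00049). In FR>FFPE the Meg3 ratio moved by 0.50 against Malat1 (exact permutation p = 0.028) and by 0.11 against Neat1 (exact permutation p = 0.54), and in FR>OH by 0.42 and 0.14 (exact permutation p = 0.15 and 0.61). The ratio of Rian in FFPE moved by -0.02 against Malat1 and by -0.23 against Neat1 (exact permutation p = 0.94 and 0.29). Against Neat1 it fell by 0.75 in FR>FFPE (exact permutation p = 0.0015) and by 0.96 in FR>OH (exact permutation p = 0.016). Against Malat1 the Rian values were -0.36 and -0.68 (exact permutation p = 0.096 and 0.083).

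For PB vs. Con over mouse means, the log2 ratios to Malat1 were higher by 2.14 for Meg3, 2.80 for Rian and 1.61 for Mirg. The ratios to Neat1 were higher by 2.76, 3.41 and 2.23, and Neat1 itself was at 2215 ± 734 CPM in FR Con and 1144 ± 348 CPM in FR PB. The exact permutation p was 0.0022 for each ratio of Meg3 and Rian and 0.0043 for each ratio of Mirg, of 24 ratio tests against these RNAs, unadjusted. For preservation, the ratios of Mirg to Malat1 and Neat1 had exact permutation p-values between 0.38 and 0.83. The ratio of Mirg to Meg3 differed by -0.53 between PB and Con mice (exact permutation p = 0.18) and by -1.51 ± 1.69 between FFPE and FR (lower in 11 of 12 mice, exact permutation p = 0.0083). It was at -0.37 and -0.22 in FR>FFPE and FR>OH (exact permutation p = 0.51 and 0.70). The Mirg ratios depend on the 0.5 counts added, since 21 of the 48 libraries hold none.

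Most of the domain was at 0. The table holds 82 rows from Wars to Ppp2r5c, of which 68 were at 0 in all libraries and 5 passed the filter: Meg3, Rian and the flanking genes Wars (tryptophanyl-tRNA synthetase), Wdr25 and Ppp2r5c (a regulatory subunit of phosphatase 2A). These 3 flanking genes were not called in PB vs. Con in FR, at 0.05 ± 0.12, -0.05 ± 0.16 and 0.01 ± 0.07 (edgeR adjusted p of 0.87, 0.90 and 0.94), or in FFPE vs. FR, at -0.11 ± 0.09, 0.27 ± 0.12 and 0.22 ± 0.05 (edgeR adjusted p of 0.27, 0.040 and 8.7e-05, all under the 2-fold limit). Dlk1, Rtl1 and Dio3, the paternally expressed genes, each had no more than 1 count in a library and were above 0 in 2 of 48 libraries. The plus-strand row 6430411K18Rik, antisense to Rtl1 and between Meg3 and Rian, was chosen after its values were seen. It had 24 counts in 13 of 24 Con libraries and 164 counts in all 24 PB libraries, which is 0.110 and 0.715 CPM, and its mouse means differed by 1.95 on the log2 scale (6 of 6 PB mice above all Con mice, exact permutation p = 0.0022). Whether the counting used strand is not given in the sources used here, and the RefSeq span of Rtl1, chr12:109564900-109604418 on the minus strand, overlaps the end of Meg3 and the start of Rian. Reads of overlapping genes on opposite strands are uncertain to that extent.

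As a reference for the treatment, 23 of 28 tested phenobarbital targets were called higher in FR and 0 lower, with a median log2 fold change of 3.06 beside 0.00 over all genes. The largest were Cyp2b10 (12.40 ± 0.40), Cyp2c55 (9.02 ± 0.28), another P450, and the glutathione transferase Gstm3 (6.14 ± 0.33). The fold changes of Meg3 and Rian were below this median. Of 22 pericentral genes, 2 were called higher, Cyp1a2 (1.61 ± 0.15) and the receptor gene Ahr (1.14 ± 0.12), and 1 was called lower, the Wnt antagonist Notum (-1.001 ± 0.219), with a median of -0.30. Of 15 periportal genes 1 was called lower, the gluconeogenic Pck1 (-1.36 ± 0.24), and none higher, with a median of -0.10. In PB vs. Con in FR, 1.74% of all 13370 genes were called higher and 35 genes lower. In FFPE vs. FR, 0 phenobarbital targets were called higher and 4 lower (median -0.63), and 4 pericentral genes were called higher, Axin2, Rnf43, Tbx3 and Znrf3, and 1 lower, Rhbg (median 0.18), named after their values were seen. The 4 of 22 stand beside 13.0% of all genes called higher in that comparison, and with TMM factors they were 1 higher and 3 lower and with total reads 0 higher and 8 lower. The genes called lower stand beside 258 of all 13370. Of the 28 phenobarbital targets, 10 were called lower with TMM factors and 24 with total reads, beside 669 and 3566 of all genes. The lists were compiled with earlier results of these data known.

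As a reference for preservation, 9 of 23 other long noncoding RNAs were called higher in FFPE vs. FR and 0 lower, with a median of 0.67 beside 0.32 over all genes, of which 13.0% were called higher. The largest were Snhg11 (2.03 ± 0.16), Jpx (1.90 ± 0.16), a regulator of Xist, and Firre (1.73 ± 0.10), all below the 2.52 of Meg3. The numbers called higher were 8 for FR>FFPE vs. FR, beside 6.47% of all genes, and 3 for FR>OH vs. FR, beside 3.90%. With TMM factors 7 of the 23 were called higher in FFPE and 0 lower. With total reads 1 was called higher, Snhg11 at 1.08, and 2 lower, and the median turned to -0.28. Of 23 other imprinted genes 2 were called higher in FFPE, Kcnq1ot1 (1.31 ± 0.13), an imprinted antisense RNA, and Peg3 (1.19 ± 0.22), and 1 lower, Dcn (-1.19 ± 0.11), with a median of 0.24. The 2 of 23 stand beside 13.0% of all genes called higher, and the 1 of 23 beside 258 of all 13370 called lower. With total reads 0 of the imprinted genes were called higher and 6 lower, beside 131 and 3566 of all genes. With PB in FR, where 1.74% of all genes were called higher, 1 of the 23 long noncoding RNAs was, Snhg11 at 1.03 ± 0.24. So was 1 of the 23 imprinted genes, Airn at 1.10 ± 0.35. Airn was outside the rule for named genes and was named after its values were seen.

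Marker genes of liver cell types were summed in each library to set beside these values. The summed CPM of 6 hepatocyte markers (Alb, Apoa1, Ttr, Serpina1a, Tat and Cps1) ranged from 60227 to 91823 in FR Con, 43661 to 79250 in FR PB, 28683 to 40950 in FFPE Con and 22391 to 37053 in FFPE PB. Of these, 3 of 6 were called lower in FFPE vs. FR, namely Alb, Apoa1 and Ttr, beside 258 of all 13370 genes. The sum of 8 endothelial markers ranged from 387 to 475 CPM in FR Con, 389 to 475 in FR PB, 426 to 485 in FFPE Con and 397 to 466 in FFPE PB, with 0 of 8 called. In FR>OH, where the PB differences of Meg3 and Rian had the highest values, the endothelial sum ranged from 214 to 354 CPM in Con and 234 to 413 in PB. The stellate or smooth muscle sum of 9 genes ranged from 362 to 501 CPM in FR Con, 383 to 542 in FR PB, 266 to 387 in FFPE Con and 346 to 450 in FFPE PB, with Myh11 called higher and Dcn lower in FFPE vs. FR. The Kupffer cell sum of 6 genes ranged from 262 to 460 CPM in FR Con, 294 to 622 in FR PB, 173 to 307 in FFPE Con and 182 to 446 in FFPE PB, with Marco called lower in FFPE vs. FR.
The sum of 4 cholangiocyte genes ranged from 7.41 to 15.2 CPM in FR Con, 4.75 to 10.9 in FR PB, 9.88 to 24.5 in FFPE Con and 8.79 to 17.0 in FFPE PB, with Krt7 called higher in FFPE vs. FR. That of 4 leukocyte genes, of which 1 passed the filter, ranged from 13.2 to 19.3 CPM in FR Con, 15.3 to 29.3 in FR PB, 10.6 to 18.7 in FFPE Con and 9.29 to 31.8 in FFPE PB. With PB, 0 genes of the 6 lists were called in FR and FR>FFPE, and 1 stellate or smooth muscle gene was called higher in each of the other preservations, the collagen gene Col1a1 in FFPE (1.34 ± 0.33) and the smooth muscle actin gene Acta2 in FR>OH (1.66 ± 0.45), named after their values were seen. Over all genes 1.65% were called higher with PB in FFPE and 2.12% in FR>OH. In FR>OH the median PB difference was 0.39 for the stellate or smooth muscle list and 0.45 for the endothelial list, beside 0.02 over all genes. It was 0.39 for the cholangiocyte list, 0.37 for the Kupffer cell list, 0.27 for the 1 leukocyte gene tested and -0.19 for the hepatocyte list. The calls in FFPE vs. FR depended on the divisor. With total reads, 5 of 6 hepatocyte, 5 of 8 endothelial and 6 of 6 Kupffer cell markers were called lower. Of the others, 2 of 9 stellate or smooth muscle, 0 of 4 cholangiocyte and 1 of 1 leukocyte genes were called lower. No marker was called higher with that divisor, beside 131 higher and 3566 lower of all 13370 genes. No marker was at 0 in all libraries. The part of cell composition in the Meg3, Rian and Mirg values was not tested.

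Among the 12287 genes with a mean of at least 1 CPM that were compared with each of them, Rian was the gene whose log2 level followed Meg3 most closely over the 48 libraries (r = 0.88), and Meg3 was the closest to Rian. After the 8 group means were subtracted they were again each other's closest gene (r = 0.72). These are descriptions of libraries that share mice and divisors. Next to Meg3 by level came Dock8, Arhgef7, Tbcel and Gas7 (r = 0.87, 0.87, 0.87 and 0.86), and next to Rian came Wisp1, Cyp2c53-ps, Gas7 and 4931406C07Rik (r = 0.88, 0.88, 0.88 and 0.87). By deviations from the group means, Meg3 was followed by Hnrnpd, Ppp1r3c, Cyp1a2 and Helz (r = 0.66, 0.65, 0.65 and 0.65) and Rian by Ssb and Zfp937 (r = 0.64 and 0.61), with Nat8f5 also among its 5 closest (r = 0.57). Cyp1a2 is a P450 of pericentral hepatocytes. For Mirg the closest genes were Gsg2, Tfcp2l1, Colgalt2, H2-M3 and Tmtc4 by level (r = 0.62 to 0.59) and Nup43, H2-M3, Trim5, Vps36 and Ino80b by deviation (r = 0.54 to 0.46). Its own r with Meg3 and Rian was 0.47 and 0.52 by level and 0.05 and 0.08 by deviation, at counts where most values are 0 to 3.

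The other samples of the series did not measure these RNAs at a usable level. In the 12 libraries of AML12, a mouse hepatocyte line, made with a targeted panel, Meg3, Rian and Mirg were each listed at 0 in every library, as were Dlk1, Rtl1 and Dio3. The rat liver and rat lung tables (18 libraries each) have no row for the 3 RNAs and list Dlk1, Rtl1 and Dio3 at 0 throughout. The tables do not tell which genes had a probe, so these values say nothing of expression in the line or the rat organs.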

How the data were processed

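Livers of 12 mice were measured as 48 libraries of total RNA depleted of ribosomal RNA, read as paired 50-base ends. The authors aligned reads with STAR (2.5.3a) to GRCm38 (mm10) and deposited estimated counts per RefSeq gene from an expectation-maximization step in Partek. They are expected counts, since not all values were whole (92.2% were, within 1e-09), and were rounded here. The log2 values deposited by the authors are counts, with 0.0001 added, relative to a library size that is read here as the total reads. The tables of the hepatocyte line and the rat organs hold estimated counts as deposited, and their normalized tables were not used.

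Differential expression was tested with edgeR (4.0.16, R 4.3.3) by quasi-likelihood over 8 group means, with the column total as library size. Genes with a geometric mean over 1 count were kept (13370 of 24543), p-values were adjusted by Benjamini-Hochberg over all of them, and the SE is the Wald SE. The fit was tested on simulated data drawn as independent libraries, which does not cover libraries that share a liver. Called genes had an adjusted p under 0.05 and changed by 2-fold or more. Exact permutation tests (two-sided, scipy 1.17.1) used the mice as units on log2(CPM + 0.1), on which scale the changes of low genes are understated. Wherever counts give an interval or a floor, it covers counting error only. The alternatives were other library sizes, filters and pseudocounts, the mouse as a block, a term for the lane, limma (3.58.1) on the deposited log2 values, DESeq2 (1.42.0), and leaving out each mouse.

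The libraries of a mouse share its liver. Over 7953 genes, the deviations from the group means correlated above 0.1 in 72 of 72 pairs of libraries from the same mouse (median r of 0.70, and -0.13 between other mice of the same treatment). As deviations from a group mean cancel out, a positive r within mice brings a negative r between mice. No 2 libraries of a group agreed within sampling noise.

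The members and gene lists were chosen with earlier results of these data known. Values are given for the 3 RNAs in every comparison, for the genes of the domain that passed the filter, for the 5 genes closest to each RNA (1 of them is not reported here), and for up to 3 called genes of each list with the largest fold change, in PB vs. Con in FR or, for the long noncoding and imprinted lists, in FFPE vs. FR. Sequences and positions are those of RefSeq on GRCm38.p6.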

Additional observations from a re-analysis of the deposited data

Results flagged for a closer look

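In the FR Con group, mouse 8C had a Meg3 level of 1.96 CPM, far from the next mouse at 1.26 CPM. Mirg stood out in 3 groups of Con libraries. In FR Con, mouse 90C had 0.165 CPM and the other 5 mice had 0. Mouse 82B had 0.764 CPM in FR>FFPE Con, where the next mouse had 0.110 CPM, and 0.396 CPM in FR>OH Con, where the next had 0.109 CPM. These Mirg values rest on few counts, 7 at most. A far sample was found in 4 of the 24 groups checked, and chance alone flags about 1 in 20 groups of continuous values. The Mirg groups, made mostly of zeros, need not keep to that rate.

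The PB response of Meg3 in FR>OH exceeded that in FR by 1.41 on the log2 scale over mice, and that of Rian by 1.51 (exact permutation p = 0.0065 and 0.017 over 6 against 6 mice, unadjusted). Both come from a set of 6 such tests, added after the edgeR values were seen. Adjusted over the 6 by Benjamini-Hochberg, the exact permutation p was 0.039 for Meg3 and 0.052 for Rian. In the fit across all genes no such interaction was called. The Con mean of Rian in FR>OH rests on 1 to 12 counts per library.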

How the results depend on the processing

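PB vs. Con in each preservation and over mouse means kept its direction and its call for Meg3 and Rian under each alternative that could be fitted, with the exception of Meg3 in FR with a lane term, at 1.44 and not called. The lane term could not be fitted for PB vs. Con in FR>FFPE, for the interaction of PB with FR>FFPE, or for FR>FFPE and FR>OH vs. FR. Nor could it be fitted for any comparison between embedded preparations. A mouse block cannot enter PB vs. Con within a preservation. Mirg was fitted only without the filter. With the mouse as a block, the other calls of Meg3 and Rian did not change, at 2.53 and 1.23 in FFPE vs. FR and 1.43 and 0.60 in FR>FFPE vs. FR.

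Rian in FFPE vs. FR was 0.96 with TMM factors, 0.29 with total reads, 0.95 with the lane term, 0.25 with limma on the deposited log2 values and 0.96 with DESeq2, none called. Rian in FFPE vs. FR>OH was 0.95, 0.43, 0.63 and 0.96 with TMM factors, total reads, limma and DESeq2, none called. With total reads and limma in turn, Meg3 was 0.89 and 0.80 in FR>OH vs. FR, 0.50 and 0.59 in FFPE vs. FR>FFPE, and 0.69 and 0.79 in FFPE vs. FR>OH, none called. Rian in FR>OH vs. FR, never called, turned to -0.14, -0.38 and -0.0019 with total reads, limma and DESeq2. The limma values divide by total reads and the total reads setting does so by construction. For the others the cause was not tested.

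Over mice, Rian with total reads was 0.23 in FFPE vs. FR and 0.14 in FR>FFPE vs. FR, both no longer past the threshold, and -0.14 in FR>OH vs. FR, where 0.01 CPM added gave -0.035. With 1 CPM added, the change of the PB response of Meg3 passed the threshold in FFPE (0.67) and FR>FFPE (0.63). For Mirg, the ratio to Meg3 for PB vs. Con was 0.75 with 0.1 counts added and -0.973 with 1 added, in FFPE vs. FR -1.69 with 0.1 added, and in FR>OH vs. FR 0.11 with 0.1 added. Its ratio to Malat1 was -0.00883 in FR>FFPE with 1 added, and its ratio to Neat1, with 0.1 added, 0.084 in FR>FFPE and in FR>OH 0.25.

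Leaving out each mouse in turn gave -0.11 to 0.30 for Rian in FR>OH vs. FR, and -0.13 to 0.34 and -0.065 to 0.60 for its interactions of PB with FFPE and FR>FFPE, none called. Rian in FFPE vs. FR>OH ranged from 0.93 to 1.21 and was not called without 8D or 90C. Over mice, Rian in FR>FFPE vs. FR ranged from 0.41 to 0.62, with p above 0.05 without 8D, 18D, 20D or 75C, and in FR>OH vs. FR from -0.081 to 0.21. Mirg in FR>OH vs. FR ranged from 0.32 to 0.66, past the threshold without 90C. The change of the Meg3 response in FR>FFPE ranged from 0.29 to 0.71, past the threshold without 8D. The ratio of Meg3 to Malat1 in FR>FFPE ranged from 0.40 to 0.62, no longer past the threshold without 8D, 18D or 21C. That of Rian to Malat1 ranged from -0.15 to 0.066 in FFPE, from -0.45 to -0.23 when FR>FFPE was compared (past the threshold without 8D) and from -0.82 to -0.50 with FR>OH (past it without 21C), and that of Rian to Neat1 in FFPE from -0.39 to -0.14 (past it without 21C). In all, under other settings 372 values kept direction and call, 10 reversed, 19 lost and 3 gained the threshold, and on leaving out a mouse 737 kept both, 17 reversed, 9 lost and 5 gained it. Mirg, at 0 to 7 counts, and Rian in FR>OH Con, at 1 to 12, rest on few counts per library.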
